A study of Mus musculus with 6 samples.

Results

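Respiratory complexes II to V and cytochrome c were followed across mouse muscle of 3 groups. The members were chosen by gene symbol: names that start with Sdh (subunits and assembly factors of complex II), Uqc (complex III), Cox followed by a digit (complex IV) or Atp5 (complex V), with Cyc1 and Cycs added. Symbols were assigned through the RefSeq accessions of the array's probes. Of 20972 symbols on the array, 65 were members, and 62 of them were measured. Cox17, Cox7b2 and Cox8c were not well above background on both arrays of any group and have no value here.

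The respiratory chain of the inner mitochondrial membrane carries electrons from fuel to oxygen and pumps protons as it does so. Complex II, succinate dehydrogenase, is also an enzyme of the citric acid cycle and passes electrons from succinate to ubiquinone. Complex III passes them from ubiquinol to the small carrier cytochrome c, complex IV (cytochrome c oxidase) hands them to oxygen, and complex V (ATP synthase) uses the proton gradient to make ATP. Apart from complex II, each is built from nuclear and mitochondrial genes, so assembly factors that insert haem, copper and mitochondrially encoded subunits are part of the same machinery. Heart and oxidative limb muscle are rich in all of them, and a few complex IV subunits have isoforms particular to striated muscle. The mitochondrially encoded subunits were not analysed here.

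B10_tap stands for C57BL/10 mice on tap water, MDX_tap for MDX mice on tap water, and MDX_JJ101 for MDX mice on the bioceramic water JJ101. MDX mice carry a mutation in the dystrophin gene, and C57BL/10 is their wild-type background. Each group had 2 one-colour arrays of total RNA after 10 months on the water. The age of the mice is not given, and nothing says that the replicates came from separate mice, so p-values measure the spread between these arrays, which may be technical. MDX mice differ from C57BL/10 by strain label alone, and no C57BL/10 mice on JJ101 were analysed here.

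Between 42.5% and 51.6% of the 59305 spots on an array were well above background, with the lowest shares in MDX_JJ101. The correlation between replicates was 0.989 to 0.995. The tissue label, gastrocnemius, was set against its markers and did not match them. Of 14 heart markers, 12 were above background on all 6 arrays, Myh6, Nppa and Nkx2-5 among them. Of 15 limb muscle markers, 3 were (Ckm, Tnni2 and Pvalb), and Mylpf, Myod1, Myog and Myf5 were above background on no array. The samples are therefore called muscle below. All arrays lay on 1 slide, with MDX_JJ101 in one row and the other groups in the other row, so slide row and JJ101 cannot be told apart. B10_tap lay in slide columns 1 and 2 and both MDX groups in columns 3 and 4, so genotype and slide column cannot be told apart either.

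Many of these genes share promoter elements, among them the palindromic element of the factor NRF1 and the core element of the ETS family, to which GABP belongs. RefSeq promoter windows on GRCm38.p6, from 250 bases before to 50 bases after the annotated start, were matched for 51 of the 65 members, with 55 windows in all. The NRF1 motif (GCGCA, any 1 base, GCGC) was in 23.6% of the members' windows and in 4.60% of all 32851 windows. The ETS motif CCGGAAGT was in 14.5% and 3.89%, and the YY1 motif AAGATGGC in 10.9% and 2.75%. A further 4 motifs were searched, also on both strands. The SP1 motif GGGGCGGGG was in 16.4% of the members' windows and 11.4% of all, and CCAAT in 50.9% and 37.4%. The ERR motif TNAAGGTCA was in 3.64% and 1.28%, and the MEF2 motif (CTA, any 4 bases, TAG) in 1.82% and 3.69%. A match describes the letters of the window and is neither a bound site nor a cause. The NRF1 and SP1 motifs are rich in G and C, as are many promoters of broadly expressed genes, and base composition was not matched between the sets of windows.

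The 150 bases before the start are shown for 5 members, 5′ to 3′ on the gene's strand, with NRF1 or ETS matches in capitals. Sdha, at chr13:74350241-74350390 on the minus strand, is shown because it holds 3 NRF1 matches; Sdhd, at chr9:50603850-50603999 on the minus strand, and Atp5g2, at chr15:102671048-102671197 on the minus strand, hold 1 each. All these 3 genes were higher in MDX_JJ101 than in MDX_tap, and they do not stand for the set. Of all measured members with the NRF1 motif 4 of 13 were higher, and of those without it 13 of 37. Atp5h, at chr11:115419920-115420069 on the minus strand, holds an NRF1 match and, near the start, an ETS match, and did not pass the test in that comparison. Cox10, at chr11:64079473-64079622 on the minus strand, holds an ETS match and had the largest difference of all members.
Sdha: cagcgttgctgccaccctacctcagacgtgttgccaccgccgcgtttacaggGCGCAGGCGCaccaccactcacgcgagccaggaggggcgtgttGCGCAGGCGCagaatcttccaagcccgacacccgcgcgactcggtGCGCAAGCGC
Sdhd: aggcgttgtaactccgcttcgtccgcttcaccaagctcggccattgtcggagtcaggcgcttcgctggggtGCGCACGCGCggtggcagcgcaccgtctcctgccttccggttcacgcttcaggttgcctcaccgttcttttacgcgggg
Atp5g2: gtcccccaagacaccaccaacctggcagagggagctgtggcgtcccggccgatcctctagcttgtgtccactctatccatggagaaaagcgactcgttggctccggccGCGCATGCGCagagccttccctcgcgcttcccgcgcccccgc
Atp5h: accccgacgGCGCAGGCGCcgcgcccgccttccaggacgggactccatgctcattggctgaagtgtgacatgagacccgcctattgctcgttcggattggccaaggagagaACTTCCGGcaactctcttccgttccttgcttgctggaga
Cox10: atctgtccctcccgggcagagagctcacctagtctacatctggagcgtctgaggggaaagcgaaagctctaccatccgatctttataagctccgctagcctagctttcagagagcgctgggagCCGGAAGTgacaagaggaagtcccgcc

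Levels are log2 processed signals from which the 75th percentile of their array was taken off, so that a level of 0 is that percentile, and differences are differences of these log2 levels. Levels of different genes come from different probes and are not compared with each other. Tests are limma's moderated test adjusted after Benjamini and Hochberg over the 20893 genes and transcripts tested, two-sided, and "higher", "lower", "rose" and "fell" are used of an adjusted p under 0.05. All 62 measured members were above background on all 6 arrays.

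**Figure D1:**
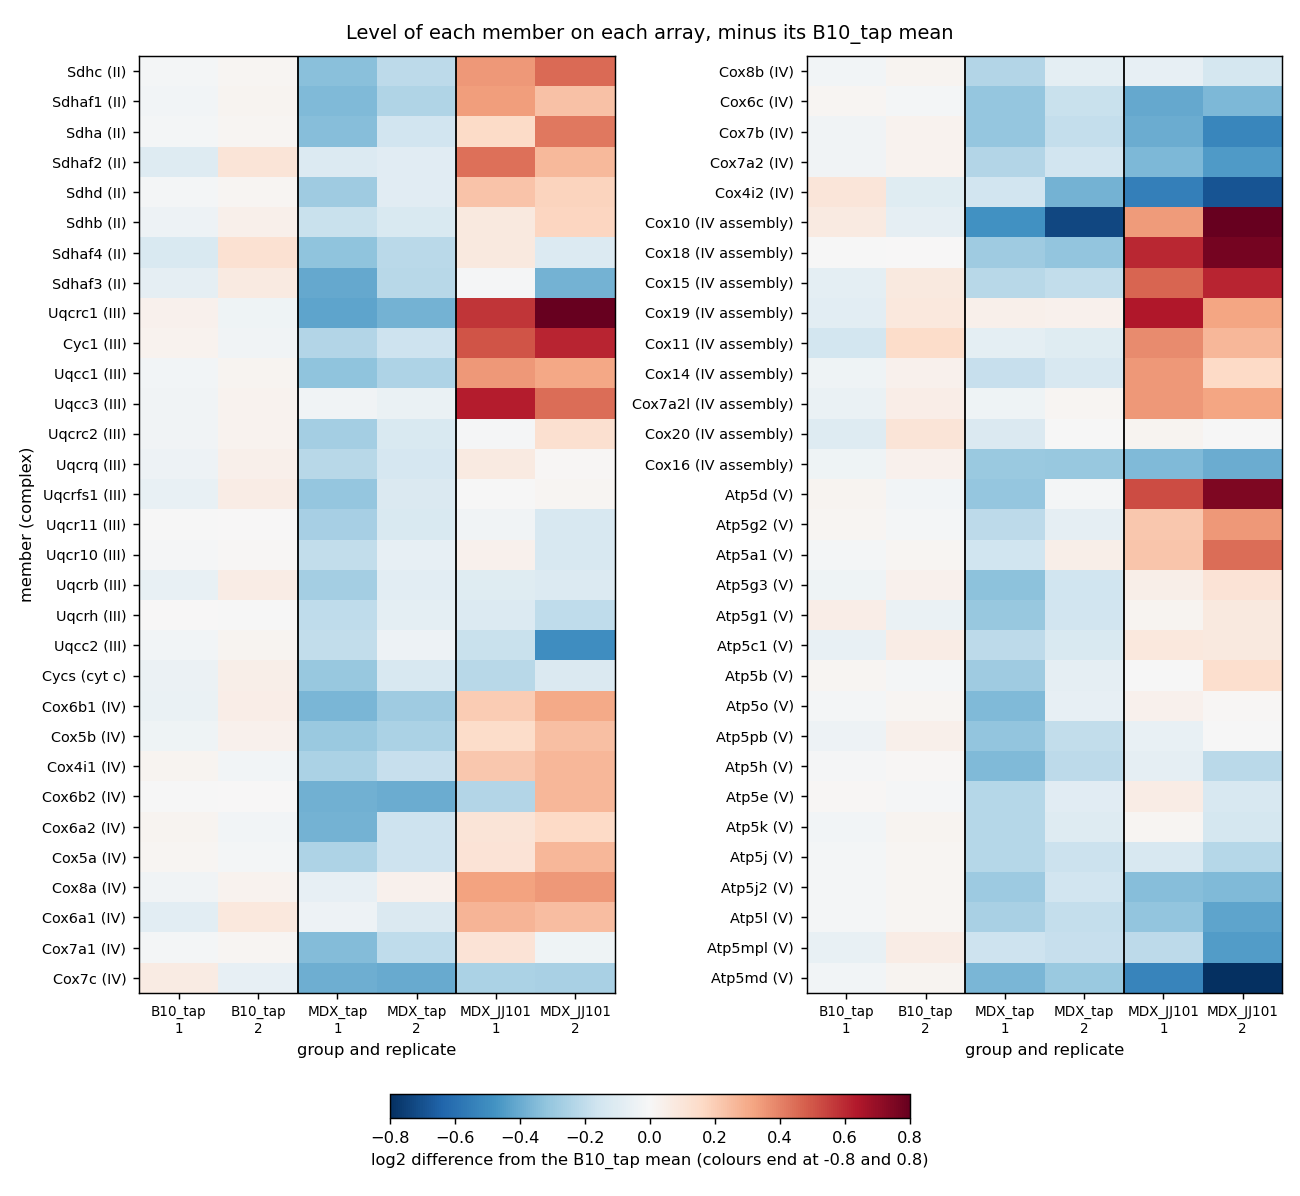
Level of each of the 62 measured members on each of the 6 arrays, minus its B10_tap mean (log2, colour); rows are members, ordered within a complex by the difference between MDX_JJ101 and MDX_tap, and columns are arrays. Nearly all members are below the B10_tap mean on both MDX_tap arrays, while on the MDX_JJ101 arrays members are found on both sides, from Atp5md at -0.84 to Cox10 at 0.98 on replicate 2.

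In MDX muscle on tap water, the respiratory genes were a little below wild type almost without exception, but no single one passed the test. Of the 62 members, 61 had a negative difference between MDX_tap and B10_tap, with a median of -0.21, where the median of all genes tested was -0.060. The exception was Cox19, a copper-handling assembly factor of complex IV, at 0.038. No member was called, beside 0.0239% of all genes tested (5, each lower). An unadjusted limma p under 0.05 was found for 11 of the 62 members and for 4389 of the 20893 genes tested. The 5 calls among all genes became 0 or 1 without any 1 array of B10_tap or MDX_tap and 125 without either MDX_JJ101 array, with no member among them. The arrays of both groups stood apart for 53 of the 62 members, against 61.4% of all genes tested. Fewer muscle cells in the tissue and less RNA per cell cannot be told apart in these bulk samples.

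By complex, the members' medians in MDX_tap against B10_tap were -0.26 for complex II, -0.19 for complex III, -0.25 for the subunits of complex IV, -0.16 for its assembly factors and -0.20 for complex V. Cytochrome c, Cycs, was at -0.21. Differences between complexes were not tested. The median of the complex IV subunits was -0.13 after normexp and quantile normalization and in the authors' deposited values, and that of complex III was -0.12 without MDX_tap replicate 1. For the complex IV assembly factors the median was -0.23 without B10_tap replicate 1, -0.089 with the mean of a gene's probes and, with a change of sign, 0.017 with median centring. The smallest adjusted p was that of Cox7c, a small subunit of complex IV. It was at 8.07 and 7.94 in B10_tap, at 7.61 and 7.60 in MDX_tap and at 7.75 and 7.74 in MDX_JJ101. Both groups of MDX arrays lay below the wild-type arrays, and the difference between MDX_tap and B10_tap was -0.40 (SE 0.10, limma adjusted p = 0.143). With arrays centred on their median instead of the 75th percentile, 42 of the 62 differences were negative, the median of the members was -0.033 and that of all genes 0.11. Centring shifts all genes of an array alike, so the distance between these medians could not change with it.

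Most of complex II rose with JJ101. Between MDX_JJ101 and MDX_tap, 5 of its 8 members were higher, none was lower, all 8 differences were positive and their median was 0.42. Over all members, 22 of 62 were higher and none lower in this comparison, which is 35.5%, where 19.9% of all genes tested and 24.5% of those with a symbol were higher. In either direction 36.1% of all genes tested were called, so the members' share of calls was near that of the background and their direction was one-sided. The members' median difference was 0.27 and that of all genes 0.00079. Among all genes tested, brighter ones tended to larger differences (Spearman correlation of level and difference 0.34), which was not so among the members (-0.36). With the test kept to probes above background on all 6 arrays, 4817 of 17153 genes were higher and 2905 lower, with a median of 0.084. There 27 of the 62 members were higher and 0 lower. Arrays of the groups stood apart for 49 of the 62 members, against 72.7% of all genes tested.

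**Figure D2:**
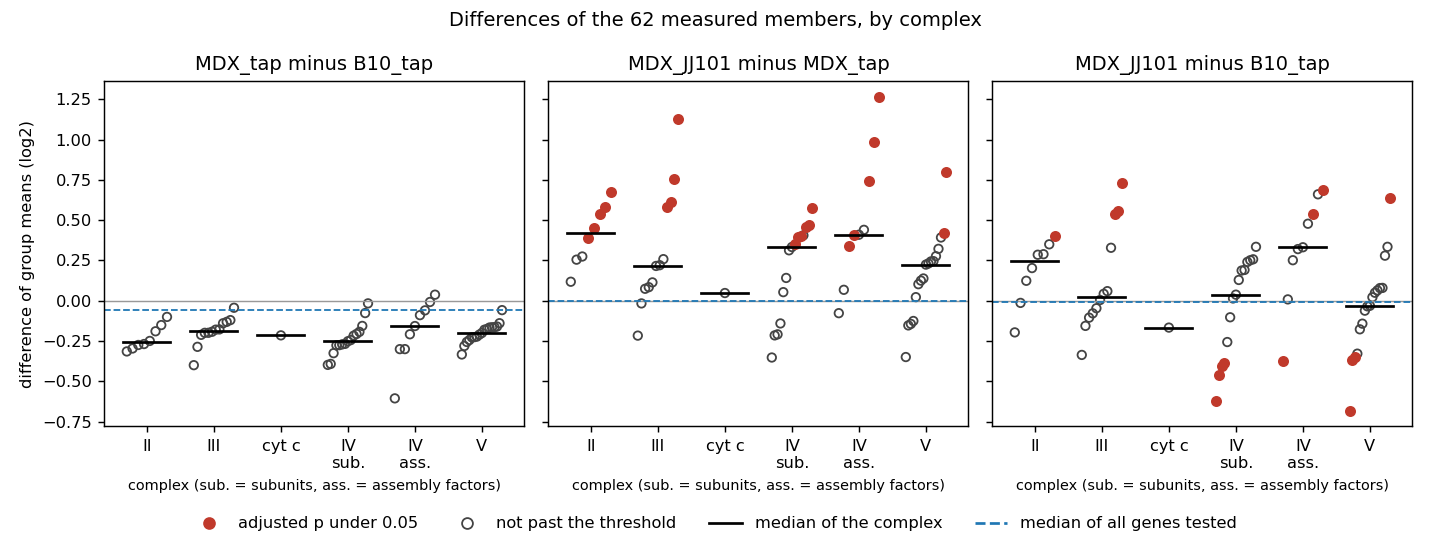
Difference of group means (log2) of each measured member, by complex, in the 3 comparisons; filled points are past an adjusted p of 0.05, black bars are medians of the complex and the dashed line is the median of all genes tested. Points are filled on the upper side alone in the middle panel, on both sides in the right panel (7 above, 8 below) and nowhere in the left panel.

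Markers of other cell types moved with this comparison, in which 19.9% of all genes tested were higher and 16.1% lower. The 9 macrophage markers on the array were above background on all arrays, with a summed linear level (relative to the 75th percentile) of 84.5 to 88.4 in B10_tap, 121 to 169 in MDX_tap and 73.4 to 88.8 in MDX_JJ101, and 7 of the 9 fell with JJ101. The 6 fibroblast markers summed to 463 to 492, 722 to 779 and 281 to 421, with Dcn the largest part of each sum. With JJ101 3 of them fell. Between MDX_JJ101 and B10_tap their median difference was 0.18, with 1 higher and 2 lower. For the 4 endothelial markers the sums were 38.5 to 39.7, 33.2 to 35.1 and 20.8 to 23.9, and 3 of them fell between the MDX groups. Of 4 adipocyte markers (sums of 246 to 274, 268 to 287 and 172 to 192), 1 was above background on all arrays and 2 were measured. Both fell: Adipoq by 2.57 (SE 0.40, limma adjusted p = 0.0140) and Fabp4 by 0.61 (SE 0.12, adjusted p = 0.0193). Fabp4 was the largest part of each sum. Adipoq was above background on 4 of the 6 arrays. Its MDX_JJ101 mean of -4.84 lay below the lowest levels well above background on those arrays, -3.33 and -3.29. Of 3 red blood cell markers (414 to 804, 480 to 544 and 317 to 333) Hbb-bt fell, by 1.1 (SE 0.31, adjusted p = 0.0456). Of 3 smooth muscle markers (37.4 to 39.9, 50.6 to 66.6 and 61.4 to 69.5) Myh11 fell, by 0.86 (SE 0.15, adjusted p = 0.0157). Heart markers summed to 5407 to 5449 in B10_tap, 5111 to 5388 in MDX_tap and 6473 to 6688 in MDX_JJ101, and 5 of 13 measured rose. Of 4 markers of slow fibres and ventricle (3327 to 3360, 2863 to 3202 and 3218 to 3375) 1 rose. Limb muscle markers summed to 101 to 112, 73.0 to 104 and 144 to 188, with Ckm the largest part of each sum. Myh1, Myh2, Myh4 and Actn3 were above background on 4 of the 6 arrays, with MDX_JJ101 means of -5.57, -5.19, -5.47 and -5.21. The lowest levels well above background on the MDX_JJ101 arrays were -3.33 and -3.29. Of 10 limb muscle markers measured, 7 fell with JJ101, Myh4 and Tnnt3 of fast fibres among them. Ckm, the muscle creatine kinase, rose by 1.37 (SE 0.15, limma adjusted p = 0.0128). The part of these changes in the results on respiratory genes was not tested.

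Among the subunits of complex II, Sdhc, one of the membrane anchors, had the smallest p. It was at 6.23 and 6.26 in B10_tap, at 5.91 and 6.03 in MDX_tap and at 6.59 and 6.70 in MDX_JJ101. The 3 groups did not overlap, with MDX_JJ101 highest, and the rise from MDX_tap was 0.68 (SE 0.10, limma adjusted p = 0.0140). Sdha, the flavoprotein that oxidises succinate, was at 6.77 and 6.80, then 6.44 and 6.63, then 6.94 and 7.21 in the same order of groups. Its rise was 0.54 (SE 0.14, adjusted p = 0.0352), with the MDX_JJ101 arrays further apart than those of the other groups. The other anchor, Sdhd, rose by 0.39 (adjusted p = 0.0447), and the iron-sulphur subunit Sdhb had a difference of 0.27 (adjusted p = 0.0830). A dimmer probe of Sdhb, also above background on all 6 arrays, had a difference of 0.62, and Sdhb was higher with the mean of a gene's probes. Of the assembly factors, Sdhaf1, which is needed for the iron-sulphur clusters of Sdhb, was at 3.63 and 3.67 in B10_tap, at 3.30 and 3.41 in MDX_tap and at 3.99 and 3.89 in MDX_JJ101. The groups again did not overlap. Sdhaf1 also had the smallest p of complex II between MDX_tap and B10_tap, at -0.30 (SE 0.10, adjusted p = 0.203), and its rise with JJ101 was 0.58 (SE 0.10, adjusted p = 0.0164). Sdhaf2, which helps attach the flavin of Sdha, rose by 0.45 (adjusted p = 0.0426). Sdhaf3 and Sdhaf4 had differences of 0.12 and 0.26 that did not pass.

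Complex III split into a few genes with large rises and a majority that did not pass the test. Of its 12 members 4 (33.3%) were higher in MDX_JJ101 than in MDX_tap, and the median difference was 0.22. Over all genes tested the share higher was 19.9%, and 36.1% were called in either direction. The core subunit Uqcrc1 was at 6.92 and 6.85 in B10_tap, at 6.46 and 6.51 in MDX_tap and at 7.45 and 7.77 in MDX_JJ101. Every MDX_JJ101 array was above every other array, and the rise from MDX_tap was 1.13 (SE 0.14, limma adjusted p = 0.0128), a 2.19-fold change. Its partner in the core, Uqcrc2, differed by 0.26 (SE 0.11, adjusted p = 0.123). Cyc1, the haem-bearing cytochrome c1, was at 7.92 and 7.86, 7.66 and 7.73, and 8.39 and 8.50 in the 3 groups. The MDX_JJ101 arrays were again the highest, with a rise of 0.75 (SE 0.10, adjusted p = 0.0130). Cyc1 and Uqcrc1 were the subunits that passed. The other 7 subunits, Uqcrfs1 (the Rieske iron-sulphur protein), Uqcrc2, Uqcrb, Uqcrq, Uqcrh, Uqcr10 and Uqcr11, lay between -0.016 and 0.26.

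Assembly factors of complex III differed among themselves. Uqcc1, which with Uqcc2 supports the making of cytochrome b, was at 3.47 and 3.52 in B10_tap, at 3.17 and 3.24 in MDX_tap and at 3.84 and 3.80 in MDX_JJ101. Its 3 groups did not overlap; its rise with JJ101 was 0.61 (SE 0.10, adjusted p = 0.0140). Between MDX_tap and B10_tap it had the smallest p of complex III, with a difference of -0.29 (SE 0.10, adjusted p = 0.192). Uqcc3 rose by 0.58 (SE 0.11, adjusted p = 0.0180). Uqcc2 had a negative difference of -0.22 (SE 0.14, adjusted p = 0.274).

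Cytochrome c, the soluble carrier between complexes III and IV, did not pass the test between the MDX groups. Cycs was at 8.77 and 8.86 in B10_tap, at 8.52 and 8.69 in MDX_tap and at 8.60 and 8.70 in MDX_JJ101. The MDX groups overlapped, and their difference was 0.048 (SE 0.11, limma adjusted p = 0.757).

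In complex IV, 6 of 15 measured subunits (40%) rose with JJ101 and none fell, with a median difference of 0.33. Over all genes tested, 19.9% were higher and 16.1% lower, or 36.1% called in either direction. Cox6b1, which faces the intermembrane space near the site of cytochrome c, was at 6.17 and 6.28 in B10_tap, at 5.86 and 5.94 in MDX_tap and at 6.43 and 6.52 in MDX_JJ101. The groups did not overlap, and the rise from MDX_tap was 0.58 (SE 0.10, limma adjusted p = 0.0169). Cox5b was at 8.34 and 8.40, 8.07 and 8.12, and 8.52 and 8.61. Its rise was 0.47 (SE 0.10, adjusted p = 0.0225), of a like size to those of Cox4i1 at 0.46 and Cox5a at 0.39. Cox6a2 and Cox8a rose by 0.40 and 0.35. The 4 subunits with a negative difference were Cox4i2, Cox7a2, Cox7b and Cox6c, between -0.35 and -0.14, and none of them passed the test in this comparison.

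**Figure D3:**
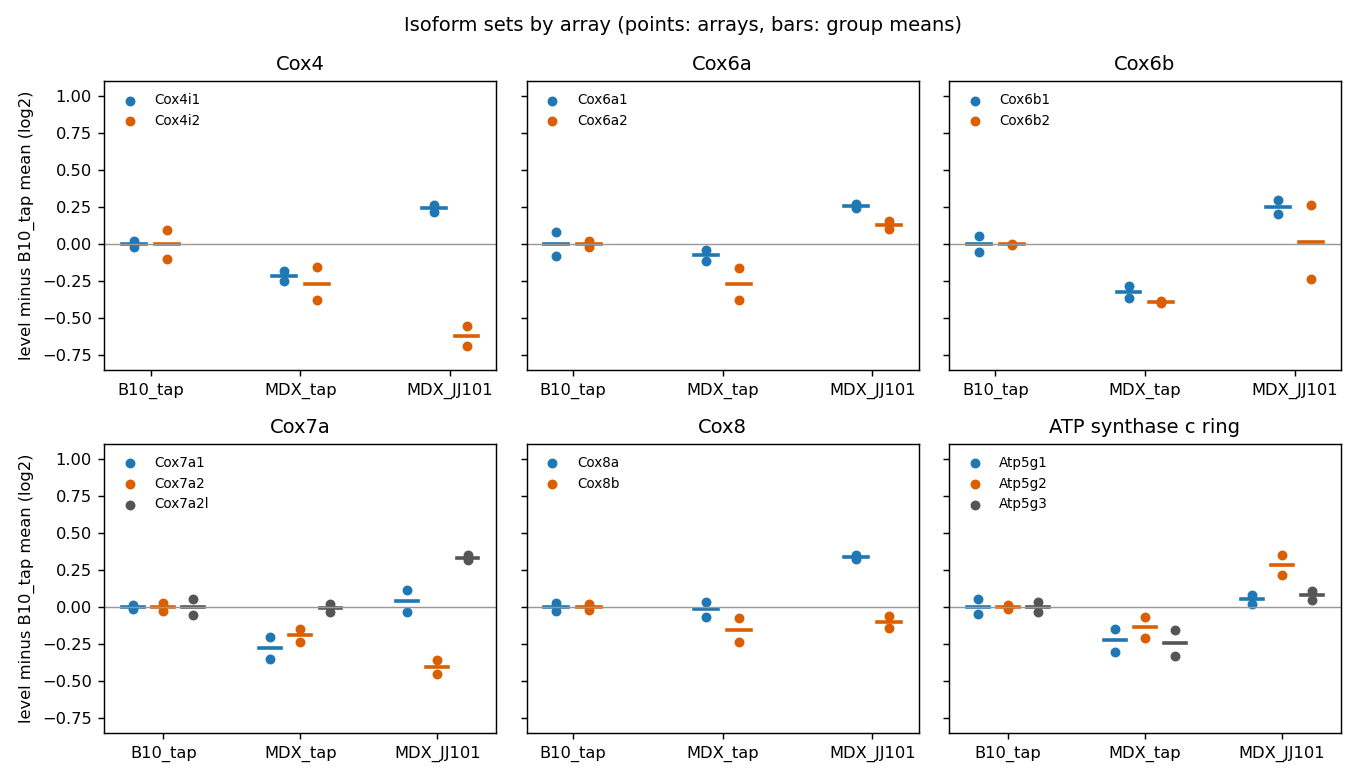
Levels of isoform sets of complex IV and of the c ring of complex V on each array, minus the isoform's B10_tap mean (log2); points are arrays and bars are group means. In MDX_JJ101 Cox4i1 lies above and Cox4i2 below the zero line, Cox8a lies above and Cox8b below it, and Cox7a2 is below it at -0.36 and -0.45.

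Isoforms of one subunit did not always share a direction. Cox4i1, the form of most tissues, was at 9.37 and 9.33 in B10_tap, at 9.10 and 9.17 in MDX_tap and at 9.56 and 9.61 in MDX_JJ101, and rose with JJ101 (0.46, SE 0.09, limma adjusted p = 0.0220). Cox4i2, the form best known from lung, was at 1.34 and 1.14, 1.08 and 0.86, and 0.69 and 0.55. No group of Cox4i2 overlapped with another, its order was B10_tap, MDX_tap, MDX_JJ101 from high to low, and the difference between the MDX groups was -0.35 (SE 0.14, adjusted p = 0.0962). Against B10_tap, Cox4i2 fell in MDX_JJ101 by 0.62 (SE 0.14, adjusted p = 0.0265).

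For Cox6a, Cox7a and Cox8, one isoform is typical of heart and limb muscle and another of other tissues. The muscle form Cox6a2 was at 10.43 and 10.39 in B10_tap, at 10.03 and 10.25 in MDX_tap and at 10.51 and 10.57 in MDX_JJ101, and Cox6a1 at 7.99 and 8.15, 8.03 and 7.95, and 8.34 and 8.31. Both were highest in MDX_JJ101: Cox6a2 rose from MDX_tap by 0.40 (SE 0.11, limma adjusted p = 0.0461), and Cox6a1 had a difference of 0.33 (SE 0.11, adjusted p = 0.0611). The muscle form Cox7a1 was at 9.99 and 10.01, 9.65 and 9.80, and 10.11 and 9.97. Cox7a2 was at 8.03 and 8.09, 7.82 and 7.91, and 7.70 and 7.60. These forms had opposite signs between the MDX groups, at 0.31 for Cox7a1 (SE 0.11, adjusted p = 0.0786) and -0.21 for Cox7a2 (SE 0.10, adjusted p = 0.145). The muscle form Cox8b was at 9.47 and 9.52, 9.26 and 9.42, and 9.43 and 9.35. Cox8a was at 7.64 and 7.70, 7.60 and 7.71, and 7.99 and 8.02. Here the form of other tissues, Cox8a, rose by 0.35 (SE 0.10, adjusted p = 0.0434), and the muscle form had a difference of 0.054 (SE 0.11, adjusted p = 0.709). By class, 1 of 3 muscle forms and 1 of 3 forms of other tissues rose, and differences between isoforms were not tested.

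Cox6b2, the testis form of Cox6b1, was at -0.50 and -0.49 in B10_tap, at -0.88 and -0.89 in MDX_tap and at -0.73 and -0.23 in MDX_JJ101. Its MDX_JJ101 arrays were 0.50 apart, and its difference from MDX_tap was 0.41 (SE 0.18, adjusted p = 0.131). Cox7b, whose testis form Cox7b2 was not above background, was at 9.25 and 9.31, 8.97 and 9.09, and 8.88 and 8.75. It followed the order of Cox4i2 and Cox7a2, lowest in MDX_JJ101, with a difference of -0.21 between the MDX groups (SE 0.11, adjusted p = 0.178).

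The assembly factors of complex IV held the largest single difference of all members, that of Cox10. Of 9 measured, 5 rose with JJ101 and none fell, with a median of 0.41. Over all genes tested, 19.9% were higher and 16.1% lower. Cox10, which makes haem O on the way to haem A, was at -0.29 and -0.44 in B10_tap, at -0.84 and -1.09 in MDX_tap and at -0.02 and 0.62 in MDX_JJ101. Its groups did not overlap; its rise of 1.27 (SE 0.23, limma adjusted p = 0.0178, 2.40-fold) came with the widest gap between replicates of any member, 0.64 in MDX_JJ101. Cox15, which takes the next step to haem A, was at 0.52 and 0.67, 0.37 and 0.40, and 1.06 and 1.20. Cox18, which inserts the mitochondrially encoded second subunit into the membrane, was at 0.50 and 0.51, 0.22 and 0.18, and 1.11 and 1.27. Both were highest on the MDX_JJ101 arrays. The rise was 0.75 for Cox15 (SE 0.11, adjusted p = 0.0137) and 0.99 for Cox18 (SE 0.10, adjusted p = 0.0128).

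The remaining assembly factors of complex IV had smaller differences. Cox7a2l, a relative of the Cox7a forms that links complexes III and IV into supercomplexes, was at 7.52 and 7.62 in B10_tap, at 7.54 and 7.59 in MDX_tap and at 7.92 and 7.89 in MDX_JJ101. B10_tap and MDX_tap overlapped and MDX_JJ101 was above both, with a rise of 0.34 from MDX_tap (SE 0.10, adjusted p = 0.0470). Cox14 rose by 0.41 (adjusted p = 0.0411), while Cox11 and Cox19, at 0.41 and 0.44, missed the threshold (adjusted p = 0.0629 and 0.0651). Cox20, which acts on the second subunit, differed by 0.068. Cox16 was at 4.27 and 4.34, 4.01 and 4.0, and 3.95 and 3.91. It was below wild type in both MDX groups, at -0.30 in MDX_tap against B10_tap (SE 0.09, adjusted p = 0.179) and -0.077 between the MDX groups (SE 0.09, adjusted p = 0.543).

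Apart from cytochrome c, complex V had the lowest share of calls in the comparison of MDX_JJ101 with MDX_tap, 2 of 17 (11.8%), with a median of 0.22. Both calls were higher, where 19.9% of all genes tested were higher. Atp5d, the delta subunit of the rotor, was at 7.10 and 7.06 in B10_tap, at 6.77 and 7.06 in MDX_tap and at 7.60 and 7.83 in MDX_JJ101. MDX_tap overlapped with B10_tap, MDX_JJ101 was above both, and the rise from MDX_tap was 0.80 (SE 0.15, limma adjusted p = 0.0177). Atp5a1, the alpha subunit of the catalytic head, was at 8.94 and 8.97, 8.79 and 9.0, and 9.18 and 9.40. Its difference of 0.39 (SE 0.13, adjusted p = 0.0677) did not pass, nor did the 0.24 of the catalytic beta subunit Atp5b (SE 0.12, adjusted p = 0.160).

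The c ring, which turns as protons pass, is built from identical mature subunits that 3 genes encode. Atp5g1 was at 9.93 and 9.82 in B10_tap, at 9.57 and 9.72 in MDX_tap and at 9.89 and 9.96 in MDX_JJ101. Atp5g2 was at 8.50 and 8.48, 8.28 and 8.42, and 8.70 and 8.84, and Atp5g3 at 9.39 and 9.46, 9.09 and 9.27, and 9.47 and 9.53. For all 3 genes MDX_tap was the lowest group. The difference between the MDX groups was 0.28 for Atp5g1 (SE 0.11, adjusted p = 0.0994), 0.42 for Atp5g2 (SE 0.11, adjusted p = 0.0365) and 0.32 for Atp5g3 (SE 0.11, adjusted p = 0.0691), so that Atp5g2 alone passed.

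None of the 9 stalk and membrane subunits of complex V passed between the MDX groups, and their median difference was 0.023. Among all genes tested 36.1% were called in either direction. Atp5h, the d subunit of the stalk, was at 9.57 and 9.59 in B10_tap, at 9.23 and 9.37 in MDX_tap and at 9.51 and 9.36 in MDX_JJ101. It had the smallest p of complex V between MDX_tap and B10_tap, with a difference of -0.28 (SE 0.11, limma adjusted p = 0.237), and the MDX groups overlapped. Atp5md, a small subunit of the membrane part, was at 9.01 and 9.05, 8.66 and 8.73, and 8.50 and 8.19. Its order was that of Cox4i2, with the MDX_JJ101 arrays lowest, at -0.35 from MDX_tap (SE 0.13, adjusted p = 0.0948).

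Set by role rather than by complex, 13 of 46 subunits (28.3%, cytochrome c included) rose between MDX_tap and MDX_JJ101, with a median of 0.24. Of 16 assembly factors 9 rose (56.25%), with a median of 0.42. Of all genes tested 19.9% were higher, and of those with a symbol 24.5%. The difference between the shares of subunits and assembly factors was not tested. The order of group means was MDX_tap, B10_tap, MDX_JJ101 from low to high for 37 of the 62 members, and MDX_tap was the lowest group for 50. MDX_JJ101 was the lowest for 11, which were Uqcc2 and Uqcrh in complex III, Cox4i2, Cox6c, Cox7a2, Cox7b and Cox16 in complex IV, and Atp5j2, Atp5l, Atp5md and Atp5mpl in complex V. No member of complex II was among them. These orders were not counted over all genes tested. The comparisons of MDX_tap with B10_tap and of MDX_JJ101 with MDX_tap share the MDX_tap arrays and are not independent.

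Calls in the comparison of MDX_JJ101 with MDX_tap depended on single arrays and on the scaling. Without MDX_tap replicate 1, Cox18 alone passed, and without MDX_tap replicate 2 none did; 10 members passed without MDX_JJ101 replicate 2 and 7 without either B10_tap array, which then no longer added to the estimate of spread. With slide column as a block no member passed, the lowest adjusted p being 0.0580. Scaled to 7 spike-in probes, no member passed and 46 of the 62 differences were negative, with a median of -0.17, while the median of all genes was -0.43. After normexp background correction and quantile normalization 15 members were higher and 7 lower, and in the authors' deposited values, fitted the same way, 11 and 5. The lower ones in both were Atp5j2, Atp5l, Atp5md, Cox6c and Cox7b, with Cox7a2 and Uqcrh in the former alone. Of the 18 alternatives, 8 leave the distance between the members' median and that of all genes as it is by construction. In the other 10 the members' median was above that of all genes by 0.016 to 0.32, the smallest distance being that with no filter on dim probes. Of the 22 genes that rose, 15 kept a positive sign in the 10 alternatives that can change a member's difference, and 7 turned negative with spike-in scaling. By complex, the medians with spike-in scaling were negative throughout, from -0.22 for complex III to -0.014 for complex II, and that of complex V was 0.041 after normexp and quantile normalization, 0.052 in the authors' deposited values and 0.087 without MDX_tap replicate 1.

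**Figure D4:**
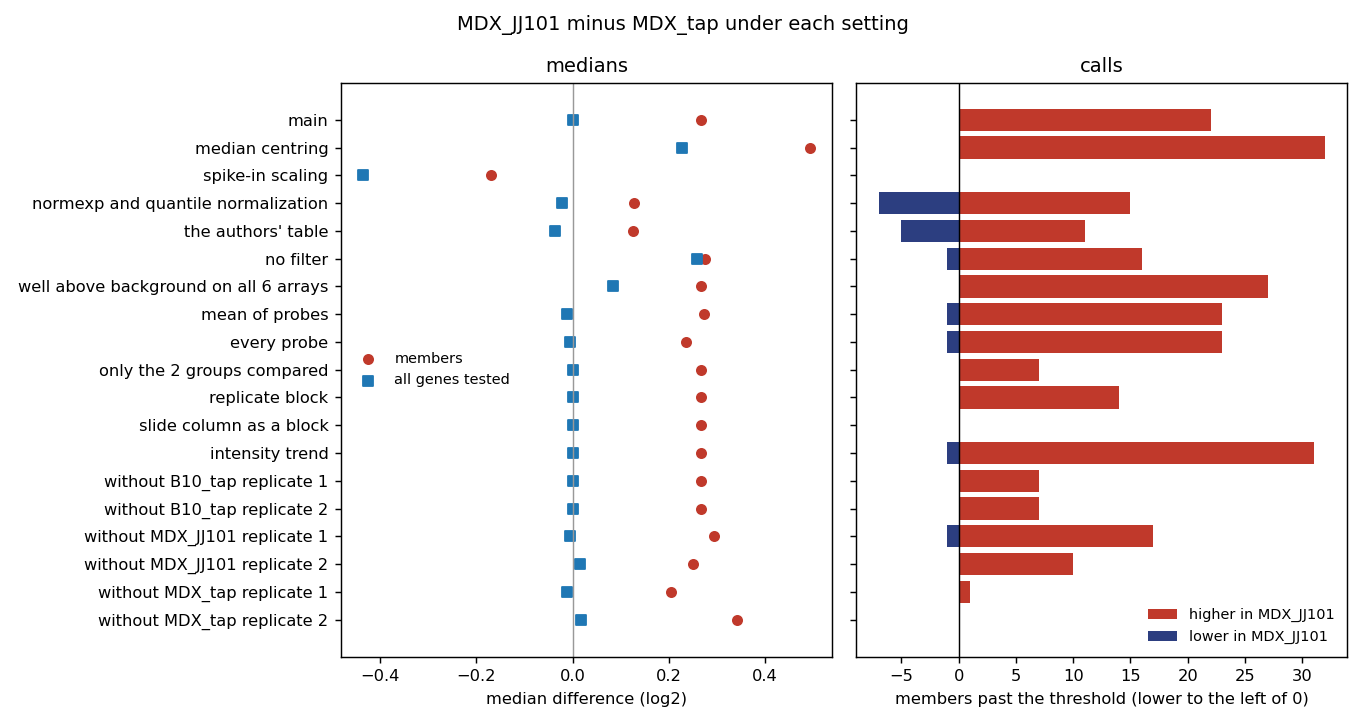
Median difference between MDX_JJ101 and MDX_tap (log2) of the members and of all genes tested, and the number of members past the threshold, under each way of processing the arrays. The members' median lies to the right of that of all genes in each row, in 8 of the alternatives at the main distance by construction, and the number of calls ranges from 0 (spike-in scaling, slide column as a block, without MDX_tap replicate 2) to 32.

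Set against wild type rather than against MDX_tap, the JJ101 arrays held respiratory genes on both sides. Between MDX_JJ101 and B10_tap, 7 members were higher and 8 lower, where 33.6% of all genes tested were called (16.2% higher and 17.4% lower). This comparison shares arrays with each of the others and is not independent of them. The higher ones were Uqcrc1 (0.73), Cox18 (0.69), Atp5d (0.64), Cyc1 (0.55), Cox15 (0.54), Uqcc3 (0.54) and Sdhc (0.40). The lower ones were Atp5md (-0.68), Cox4i2 (-0.62), Cox7b (-0.46), Cox7a2 (-0.41), Cox6c (-0.38), Cox16 (-0.38), Atp5l (-0.37) and Atp5j2 (-0.35). Complexes II and III had 4 higher and 0 lower of 20, complex IV 2 higher and 5 lower of 24, and complex V 1 higher and 3 lower of 17. The median of the members was 0.055 and that of all genes -0.0070, and the groups' arrays stood apart for 47 of 62 members, against 75.3% of all genes tested.

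The split of this comparison followed the scaling. With arrays centred on their median, which raised the median of all genes to 0.39, 31 members were higher and none lower, and with spike-in scaling, which lowered it to -0.47, none was higher and 2 (Atp5md and Cox4i2) were lower. Without either B10_tap array none of the 62 passed, and without MDX_JJ101 replicate 2 there were 4 higher and 1 lower.

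Other mitochondrial genes gave a measure of how far the pattern reached. Between the MDX groups 19.9% of all genes tested were higher and 16.1% lower. Of 46 genes of complex I (symbols that start with Nduf), which feeds electrons from NADH into the same chain, 20 rose between MDX_tap and MDX_JJ101 and none fell, with a median of 0.33. In MDX_tap against B10_tap, 45 of the 46 had a negative difference, with a median of -0.23. Of 14 citric acid cycle enzymes, 11 rose with JJ101, with a median of 0.67, and all 14 were negative in MDX_tap against B10_tap, with a median of -0.20. Of 14 genes of the outer membrane, protein import and mitochondrial fusion, 6 rose with JJ101, with a median of 0.41. In MDX_tap against B10_tap, 10 of these 14 were negative and 4 positive. Their median there was -0.11, nearer to that of all genes tested (-0.060) than to that of the members (-0.21). On the scale of the 75th percentile the medians of these lists thus had the sign of the members' median in both comparisons named. Both comparisons share the MDX_tap arrays and are not independent. Differences between the lists were not tested.

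Of assembly factors that the symbol rule leaves out, 12 of 22 measured were higher and 1 lower in MDX_JJ101 than in MDX_tap, with a median of 0.47. Over all genes tested the shares were 19.9% and 16.1%. Bcs1l, which inserts the Rieske protein into complex III, rose by 0.77 (SE 0.09, limma adjusted p = 0.0128). Atpaf2, a chaperone of the alpha subunit of complex V, rose by 0.74 (SE 0.09, adjusted p = 0.0128), and Sco2, a copper chaperone of complex IV, by 0.70 (SE 0.09, adjusted p = 0.0129). Higd2a, a supercomplex factor, rose by 0.72 (SE 0.09, adjusted p = 0.0128). The one that fell was Hccs, the enzyme that attaches haem to cytochrome c and Cyc1, by 0.51 (SE 0.14, adjusted p = 0.0398).

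Regulators of mitochondrial genes were 11 higher and 2 lower of 21 in the same comparison, with a median of 0.41. The shares over all genes tested were 19.9% higher and 16.1% lower. Perm1, a muscle partner of the PGC-1 coactivators, was at 4.88 and 4.90 in B10_tap, at 4.50 and 4.61 in MDX_tap and at 5.54 and 5.67 in MDX_JJ101. It had the same order of groups as most members, and it rose from MDX_tap by 1.05 (SE 0.11, limma adjusted p = 0.0128). Esrrb and Esrra, orphan nuclear receptors of the ERR family, rose by 1.06 (SE 0.15, adjusted p = 0.0130) and 0.67 (SE 0.10, adjusted p = 0.0139). The coactivator Ppargc1a rose by 0.68 (SE 0.17, adjusted p = 0.0353). Nrf1, whose motif is in the promoters above, differed by 0.18 (SE 0.12, adjusted p = 0.282), and Gabpa, the DNA-binding part of GABP, by 0.0037 (SE 0.10, adjusted p = 0.979). The regulators that fell were the deacetylase Sirt1, by 0.45 (SE 0.12, adjusted p = 0.0381), and the transcription factor Yy1, by 0.34 (SE 0.10, adjusted p = 0.0482).

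Members with and without a motif in a window were set side by side in the same comparison, and the differences were not tested. Of 13 measured members with the NRF1 motif, 4 rose, against 13 of 37 without it, with medians of 0.26 and 0.27. With the ETS motif 4 of 8 rose, against 13 of 42, with medians of 0.24 and 0.26. With the YY1 motif 1 of 6 rose, against 16 of 44, with medians of 0.045 and 0.29. For SP1 the counts were 2 of 9 and 15 of 41, and for CCAAT 7 of 25 and 10 of 25. The ERR motif was held by 2 measured members and the MEF2 motif by 1.

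Probes of one gene mostly had the same sign. Of 18 members with several probes above background, all 18 had probes of 1 sign in MDX_tap against B10_tap, 16 in MDX_JJ101 against MDX_tap and 15 in MDX_JJ101 against B10_tap. Cox7c and Uqcr10 were the mixed ones between the MDX groups, and Atp5k, Cycs and Uqcrq against B10_tap. All 5 had differences that did not pass the test in the comparison named. Between the MDX groups, the range of differences over a gene's probes had a median of 0.073 and was largest for Sdhb, at 0.35.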

How the data were processed

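The deposited array files hold intensity values that the authors made in Agilent Feature Extraction, version 11.5.1.1, per the submitters' processing notes, with deposited 0 or 1 flags for saturated, outlier and well-above-background spots. The authors' deposited series table holds log2 values; against the array files it matched quantile-normalized median signals, and it served as an alternative. From the 6 arrays (3 groups of 2), log2 processed signals were used after taking off their array's 75th percentile. Outlier spots were left out, spots of a probe were averaged, and probes stayed in if some group had both arrays well above background. The probe with the highest mean stood for a gene. Symbols came from RefSeq accessions (assembly GRCm38.p6), 27656 of 55681 probes matching. The 3 groups were fitted together in limma 3.58.1 (R 4.3.3), with 3 residual and 2.21 prior degrees of freedom, adjusted over 20893 features. The number of arrays limits the precision, and signal over background limits how dim a gene can be measured. The steps were tested on simulated data.

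Members, gene lists, tests and alternatives were chosen with earlier results of these data known. Values on every array are given, per complex, for the 3 members with the smallest p between the MDX groups and the one with the smallest p in MDX_tap against B10_tap, and for isoform sets; others are named by role or by call. Replicate numbers did not pair the arrays: same-numbered arrays' deviations correlated at -0.06, -0.03 and 0.16. The planned normexp correction on mean signal used the median signal, the column the files hold. No spot was saturated, so leaving out saturated probes changed nothing and was not run.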

Additional observations from a re-analysis of the deposited data

How the results depend on the processing

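Arrays of 2 a group and their scaling set the limits. For MDX_tap against B10_tap, no member passed under any of 17 alternatives. The median of -0.21 became -0.033 with median centring and ranged from -0.27 to -0.15 with 1 array left out. All genes called, 5, became 286 with median centring, 415 with spike-in scaling, 391 with normexp and quantile normalization, 342 in the authors' values, 0 with no filter, 151 for probes above background on all 6 arrays, 15 with every probe, 125 with only the compared groups, 309 with an intensity trend, and 0 to 125 with 1 array left out. For MDX_JJ101 against MDX_tap, 22 members became 0 with spike-in scaling, 7 with only the compared groups, 0 with slide column as a block (a block that the other comparisons do not allow) and 0 to 18 with 1 array left out; their median of 0.27 became 0.49 with median centring, -0.17 with spike-in scaling, 0.13 with either quantile-normalized source and 0.20 to 0.34 with 1 array left out. All genes called, 7532, became 3777 with spike-in scaling, 13640 with no filter, 3255 with only the compared groups, 0 with slide column as a block (limma; 20 members had an unadjusted p under 0.05) and 48 to 7702 with 1 array left out. For MDX_JJ101 against B10_tap, 15 members became 31 with median centring, 2 with spike-in scaling, 9 with only the compared groups, 29 with an intensity trend and 0 to 12 with 1 array left out; the median of 0.055 became 0.46, -0.41 and, with both quantile-normalized sources, -0.019. Those quantile-normalized sources split the calls 7 higher to 14 lower (normexp) and 7 to 13 (authors' values). All genes called, 7017, became 4456 with spike-in scaling, 14092 with no filter and 76 to 6903 with 1 array left out. Beside the 20 members with slide column as a block, 8864 of the 20893 genes tested had an unadjusted limma p under 0.05. A replicate block gave 14 members between the MDX groups and 8 (6 higher, 2 lower) for MDX_JJ101 against B10_tap. The arrays of a replicate block share only a number. Signs reversed with spike-in scaling between the MDX groups for Atp5g2 (-0.016), Cox14 (-0.027), Cox5a (-0.042), Cox6a2 (-0.036), Cox7a2l (-0.096), Cox8a (-0.084) and Sdhd (-0.043), and against B10_tap for Sdhc (-0.059); with median centring they reversed against B10_tap for Atp5j2 (0.053), Atp5l (0.032), Cox16 (0.024) and Cox6c (0.016). Both reversals follow from the shift that these scalings give to all genes.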
